A study of Mus musculus with 20 samples.

Results

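The genes described here encode the cytosolic DNA sensing route that runs through STING, and were chosen by name: Tmem173 (the gene of STING), Tbk1, Ikbke, Irf3, Trex1, Ifi204, Zbp1, Ddx41, Samhd1 and Aim2. All 10 were found, each as 1 row, among the 54532 gene entries of the deposited FPKM table (fragments scaled to exon length and between libraries). The values come from polyadenylated RNA of mouse liver in 4 groups of 5 libraries: STING knockout with bile duct ligation (BDL KO), wild type with bile duct ligation (BDL WT), STING knockout with sham surgery (Sham KO) and wild type with sham surgery (Sham WT). Ligation blocks the outflow of bile and makes the liver cholestatic; it lasted 7 days. The series asks how loss of STING alters gene expression in cholestatic mice. The knockout allele, the part of the gene it removes, and the strain, sex and age of the mice are not given in the sources used here. Each title carries its own library number, and nothing else says whether 2 libraries could come from 1 mouse. Each group held libraries with Xist and libraries with Y-linked transcripts, so no group rests on 1 mouse alone. The p-values rest on the spread among these libraries, which may be technical in part.

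As background, double-stranded DNA in the cytosol is bound by sensors such as cGAS, the PYHIN proteins IFI204 and AIM2, and ZBP1. cGAS makes the second messenger cGAMP, which binds STING on the endoplasmic reticulum; STING then recruits the kinase TBK1, with its relative IKKε (Ikbke), and the transcription factor IRF3 is phosphorylated and turns on type I interferon genes. The nuclease TREX1 and the nucleotide hydrolase SAMHD1 hold the route in check. AIM2 instead assembles an inflammasome, and ZBP1 can start necroptosis. In liver STING is known mainly from macrophages and other non-parenchymal cells, and several members are themselves interferon-stimulated genes.

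The libraries held 14943885 to 20898321 fragments assigned to genes, and 1 fragment on 1 kilobase of exon was worth 0.0467 to 0.0734 FPKM. This worth did not follow the total of assigned fragments. It was 0.0467 FPKM in BDL_Wt_2236 with 18619894 fragments and 0.0734 FPKM in BDL_KO_2248 with 18286126. The median ratio of a library's genes to their geometric mean over libraries was 0.992 to 1.018, so the typical gene sat at nearly the same level in every library. The 6 hepatocyte markers summed to 20736 to 60421 FPKM per library. In BDL KO, libraries BDL_KO_2359 and BDL_KO_2248 stood apart from the other 3. Their 7 monocyte and macrophage markers summed to 106 and 47.4 FPKM, against 205 to 296 FPKM in libraries BDL_KO_2365, BDL_KO_2370 and BDL_KO_2371, and their hepatocyte markers summed to 42002 and 51248 FPKM, against 28626 to 32262 FPKM. The 2 libraries also held the lowest BDL KO values of Tmem173, Ifi204, Zbp1, Ddx41, Samhd1 and Aim2. Leaving them out raises the BDL KO means of these genes and so favours calls of a rise in knockout. Differences of the members that rest on BDL KO are given both with and without these 2 libraries. Those of other genes of the pathway are so given where a stated call or count depended on these libraries. All groups share 1 estimate of the spread, so calls between the other groups can also change without these libraries. Values of single libraries are listed below in the order BDL_KO_2359, BDL_KO_2365, BDL_KO_2248, BDL_KO_2370 and BDL_KO_2371 for BDL KO, BDL_Wt_2233, BDL_Wt_2235, BDL_Wt_2236, BDL_Wt_2237 and BDL_Wt_2240 for BDL WT, Sham_KO_2347, Sham_KO_2349, Sham_KO_2350, Sham_KO_2352 and Sham_KO_2353 for Sham KO, and Sham_Wt_2223, Sham_Wt_2224, Sham_Wt_2227, Sham_Wt_2228 and Sham_Wt_2229 for Sham WT. Differences are of mean log2(FPKM + 0.5) ± standard error, a scale that understates changes of low genes, and were tested with limma in 1 fit over the 14059 genes that reached 0.5 FPKM in 5 or more libraries. Adjusted p-values follow Benjamini and Hochberg over all of these genes, with a call under 0.05. Of the 10 members 9 were tested; Trex1 did not pass the filter.

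After ligation in knockout liver, Ikbke and Aim2 rose and Irf3 fell, where 12.3% of all genes tested were called higher and 12.9% lower. In wild-type liver 7 of the 9 tested members rose with ligation and Irf3 fell, while Tbk1 was not called, against 18.1% of all genes higher and 17.5% lower. With ligation, KO livers had less RNA of 6 members than WT livers (Zbp1, Ifi204, Samhd1, Tmem173, Ikbke and Aim2), and none had more; 5.37% of all genes were called lower. After sham surgery 3 members were lower in KO livers (Zbp1, Ifi204 and Aim2), against 1.66% of all genes. The median difference of the 9 members was 0.20 for BDL KO against Sham KO, 0.92 for BDL WT against Sham WT, -1.02 for BDL KO against BDL WT and -0.53 for Sham KO against Sham WT, where the medians of all genes were -0.01, -0.02, 0.01 and 0.01. These comparisons share groups with each other, so their values are set side by side and not counted as separate evidence. In whole liver, fewer cells of a type and less RNA per cell cannot be told apart.

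**Figure D1:**
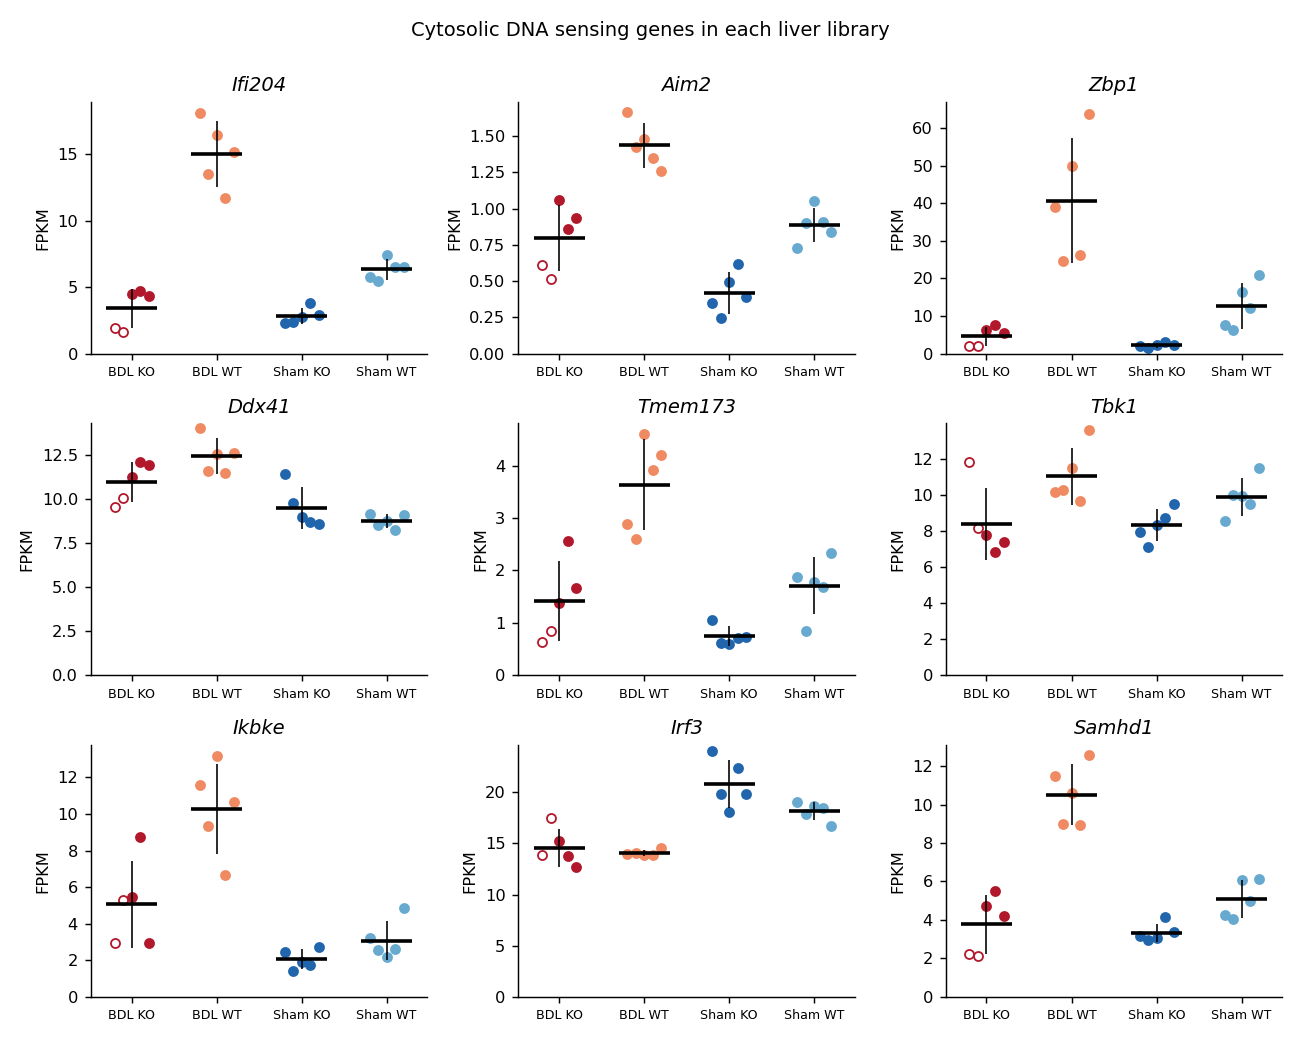
FPKM of the 9 measured members in each library (points; open points are libraries BDL_KO_2359 and BDL_KO_2248), with the group mean (bar) and SD (line), n = 5 per group, each vertical axis starting at 0. Zbp1, Ifi204 and Samhd1 reached 24.6 to 63.8, 11.7 to 18.1 and 8.94 to 12.6 FPKM in BDL WT, above every library of the other groups, whereas Irf3 was lower in ligated than in sham livers of each genotype.

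Tmem173 (ENSMUSG00000024349, chromosome 18, 35733679 to 35740554, minus strand, GRCm38) is the target of the knockout. It measured 0.840, 1.38, 0.638, 2.57 and 1.66 FPKM in BDL KO, against 2.89, 2.60, 4.60, 3.91 and 4.20 FPKM in BDL WT. In sham livers it measured 1.06, 0.617, 0.588, 0.718 and 0.730 FPKM in KO, against 1.87, 0.843, 1.79, 1.69 and 2.34 FPKM in WT. The ligated groups did not overlap, the highest BDL KO library falling just under the lowest BDL WT library, while the sham groups overlapped through 1 low WT library, Sham_Wt_2224, which lay under library Sham_KO_2347. Transcript was detected in every KO library, with 24 to 129 fragments in BDL KO and 24 to 40 in Sham KO. Fragments from outside the deleted region cannot be set apart, since its position is unknown here. The level of Tmem173 alone therefore does not check the genotype labels.

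The genotype difference in Tmem173 was -1.17 ± 0.24 log2 units after ligation (adjusted p = 0.00444; exact two-sided permutation p = 0.00794, the smallest that 5 against 5 libraries allow). After sham surgery it was -0.80 ± 0.24, with an exact permutation p of 0.0159 for this 1 gene and an adjusted p of 0.0779 over all genes. In knockout liver the ligation difference was 0.55 ± 0.24 (adjusted p = 0.0985) with all libraries, and 0.91 ± 0.22 (adjusted p = 0.00422) without libraries BDL_KO_2359 and BDL_KO_2248, which held the lowest BDL KO values. In wild type, ligation raised Tmem173 1.90-fold, by 0.92 ± 0.24 (adjusted p = 0.00507), and all 5 BDL WT libraries lay above all 5 Sham WT libraries. Without BDL_KO_2359 and BDL_KO_2248 the genotype difference after ligation was -0.81 ± 0.22 (adjusted p = 0.0389; exact permutation p = 0.0357). The single library BDL_KO_2248 decided the knockout ligation call: without it the difference was 0.71 (adjusted p = 0.0261).

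Among 11612 other tested protein-coding genes, those whose log2 values ran most like Tmem173 over the 20 libraries were Slfn2 (Pearson r = 0.96), Cd180 (0.95), Gsdmd (0.94), Plac8 (0.94) and Cd52 (0.94). Gsdmd encodes the pore-forming protein of pyroptosis and Cd52 a surface protein of leukocytes. Slfn2 averaged 6.12 FPKM in BDL KO, 19.1 in BDL WT, 3.24 in Sham KO and 7.44 in Sham WT. Of the members, Zbp1 took place 9 (0.93), Samhd1 place 42 (0.91), Ifi204 place 126 (0.88), Aim2 place 338 (0.83), Ikbke place 375 (0.83), Ddx41 place 1529 (0.65) and Tbk1 place 2980 (0.42), whereas Irf3 ran opposite (-0.60). The libraries fall into the 4 groups and share their scaling, so these coefficients mostly describe the group means.

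Of the 9 tested members, the sensors Zbp1 and Ifi204 had the largest genotype differences after both surgeries. Zbp1 (ENSMUSG00000027514, chromosome 2, 173206612 to 173218923, minus strand) encodes a sensor of Z-form nucleic acids that is strongly interferon-inducible. It measured 1.99, 6.26, 2.12, 7.65 and 5.43 FPKM in BDL KO, against 39.1, 24.6, 49.8, 26.2 and 63.8 FPKM in BDL WT. In sham livers it measured 2.06, 1.53, 2.25, 3.17 and 2.20 FPKM in KO, against 7.53, 6.39, 16.4, 12.1 and 21.0 FPKM in WT. Every KO library lay under every WT library of the same surgery, while the BDL WT libraries spread widely among themselves. The KO level was 8.34-fold lower after ligation (-3.06 ± 0.37, adjusted p = 3.16e-05) and 4.47-fold lower after sham surgery (-2.16 ± 0.37, adjusted p = 0.0047). Without libraries BDL_KO_2359 and BDL_KO_2248 the difference after ligation was -2.49 ± 0.35 (adjusted p = 0.000461). In knockout the ligation difference was 0.78 ± 0.37 (adjusted p = 0.127), and 1.35 ± 0.35 (adjusted p = 0.00623) without those 2 libraries. Ligation raised Zbp1 3.21-fold in wild type (1.68 ± 0.37, adjusted p = 0.00152).

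Ifi204 (ENSMUSG00000073489, chromosome 1, 173747293 to 173766943, minus strand) encodes a mouse PYHIN protein that binds cytosolic and nuclear DNA and acts ahead of STING. It measured 1.65, 4.49, 1.94, 4.67 and 4.30 FPKM in BDL KO, against 18.1, 13.5, 16.4, 11.7 and 15.1 FPKM in BDL WT. After sham surgery it measured 2.29, 2.39, 2.79, 3.78 and 2.92 FPKM in KO, against 5.74, 5.47, 7.45, 6.51 and 6.52 FPKM in WT. The genotypes did not overlap after either surgery, and 2 of the BDL KO libraries, BDL_KO_2359 and BDL_KO_2248, lay under all 5 Sham KO libraries. KO livers were 4.19-fold lower after ligation (-2.07 ± 0.22, adjusted p = 8.68e-06) and 2.06-fold lower after sham surgery (-1.05 ± 0.22, adjusted p = 0.015). Without BDL_KO_2359 and BDL_KO_2248 the difference after ligation was -1.62 ± 0.14 (adjusted p = 1.79e-05). The sham call was lost with values scaled to the same total in every library (TPM; -1.25, adjusted p = 0.0544) and with recovered fragments scaled to their total (voom; -1.26, adjusted p = 0.0593). The ligation difference in knockout was 0.15 ± 0.22 (adjusted p = 0.658) with all libraries but 0.60 ± 0.14 (adjusted p = 0.00359) without BDL_KO_2359 and BDL_KO_2248, and that in wild type was 1.17 ± 0.22 (adjusted p = 0.000386). PYHIN genes are close copies of each other in 1 cluster on chromosome 1, so reads may be split between them and the value of any single one is uncertain.

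Aim2 (ENSMUSG00000037860, chromosome 1, 173350879 to 173466040, plus strand), the DNA sensor of the inflammasome, was the lowest member that could be measured. It had 0.515, 1.06, 0.608, 0.860 and 0.931 FPKM in BDL KO, against 1.66, 1.42, 1.48, 1.35 and 1.26 FPKM in BDL WT. In sham livers it had 0.350, 0.244, 0.497, 0.617 and 0.391 FPKM in KO, resting on 12 to 34 fragments, against 0.728, 0.899, 1.06, 0.904 and 0.842 FPKM in WT. Genotypes were again apart after both surgeries, with 1 of 5 Sham KO libraries at or above 0.5 FPKM. The genotype difference was -0.59 ± 0.13 after ligation (adjusted p = 0.00775) and -0.60 ± 0.13 after sham surgery (adjusted p = 0.0168). Ligation raised Aim2 by 0.49 ± 0.13 in knockout (adjusted p = 0.01) and by 0.48 ± 0.13 in wild type (adjusted p = 0.00678), although single BDL KO libraries overlapped with Sham KO. The knockout call was lost with only those 2 groups in the fit (adjusted p = 0.0854), as was that between the ligated genotypes (adjusted p = 0.057). Without libraries BDL_KO_2359 and BDL_KO_2248 the ligation difference in knockout was 0.67 ± 0.12 (adjusted p = 0.000521), and the genotype difference after ligation was -0.41 ± 0.12 and was no longer called (adjusted p = 0.056). The sham difference was not called without library Sham_Wt_2227 (-0.56, adjusted p = 0.0557), with TPM (-0.91, adjusted p = 0.0565) or with recovered fragments scaled to their total (-1.20, adjusted p = 0.0684).

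Ddx41 (ENSMUSG00000021494, chromosome 13, 55530410 to 55536658, minus strand), a DEAD-box helicase reported to bind DNA and to signal through STING, differed least between genotypes among the sensors. It averaged 11.0 ± 1.13 FPKM in BDL KO, 12.5 ± 1.01 in BDL WT, 9.51 ± 1.17 in Sham KO and 8.77 ± 0.378 in Sham WT (SD, n = 5 each). In knockout the ligation difference was 0.20 ± 0.09 (adjusted p = 0.093), and 0.30 ± 0.09 (adjusted p = 0.0129) without libraries BDL_KO_2359 and BDL_KO_2248. Ligation raised it 1.40-fold in wild type (0.48 ± 0.09, adjusted p = 0.000277), with no overlap between 11.5 to 14.0 FPKM in BDL WT and 8.27 to 9.19 FPKM in Sham WT. The genotypes were not called apart after ligation (-0.18 ± 0.09, adjusted p = 0.213) or sham surgery (0.10 ± 0.09, adjusted p = 0.576). After ligation the genotype difference was -0.08 ± 0.09 (adjusted p = 0.673) without those 2 libraries, and with TPM it was -0.46 and was called (adjusted p = 0.0456). Of its exonic bases 17.4% are shared with Gm46416 on the opposite strand. Reads of both cannot be told apart unless counting used strand, which is not stated in the sources used here. Of 35 protein-coding genes with all exonic bases shared on the other strand only, 34 were listed at 0 in all 20 libraries. Of those sharing no exonic base 25.1% were. How counting treated strand was not tested.

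The cGAS gene, listed as Mb21d1 and given here for its role as the sensor that makes cGAMP, passed the filter only through BDL WT. It averaged 0.273 ± 0.167 FPKM in BDL KO, 0.682 ± 0.0514 in BDL WT, 0.159 ± 0.0571 in Sham KO and 0.364 ± 0.0416 in Sham WT (SD, n = 5 each), so all groups sat near the floor of the measurement. The list of further PYHIN and cGAS family sensors held 12 genes in the table, of which 10 were tested. Mb21d1 aside, whose low values outside BDL WT were fixed by the filter, 9 were left. Those 9 were lower in BDL KO than in BDL WT, with a median difference of -1.71, and 5 of them were lower in Sham KO than in Sham WT. Of the 9, Ifi205, Ifi206 and Ifi208 reached 0.5 FPKM in fewer than 5 KO libraries, so they passed the filter only through WT libraries. For these genes the filter itself favoured lower values in KO. Ligation raised 0 of the 9 in knockout and 5 in wild type, with medians of -0.06 in knockout and 0.85 in wild type. Without libraries BDL_KO_2359 and BDL_KO_2248, 4 of the 9 rose in knockout (Ifi205, Ifi207, Ifi209 and Ifi211), with a median of 0.41, Mb21d1 rose as well (0.44 ± 0.11, adjusted p = 0.00501), and the 9 remained lower in BDL KO than in BDL WT, with a median of -1.44. After ligation Ifi213 averaged 0.401 ± 0.290 FPKM in KO and 3.38 ± 1.04 FPKM in WT (-2.12 ± 0.22, adjusted p = 8.39e-06). Ifi211 averaged 1.45 ± 1.09 FPKM in KO and 10.4 ± 2.55 FPKM in WT (-2.64 ± 0.30, adjusted p = 1.98e-05), and Ifi208 averaged 0.199 ± 0.132 FPKM in KO and 1.62 ± 0.663 FPKM in WT (-1.55 ± 0.19, adjusted p = 3.16e-05). Of these genes the wild-type ligation calls with the smallest adjusted p were Ifi207 (1.35 ± 0.21), Ifi205 (1.21 ± 0.20) and Ifi209 (1.60 ± 0.31). In sham livers the lower calls were led by Ifi206 (-1.58 ± 0.27), Ifi211 (-1.73 ± 0.30) and Ifi208 (-0.86 ± 0.19). Without BDL_KO_2359 and BDL_KO_2248, 8 of the 9 were called lower in Sham KO, and 8 were called higher with ligation in wild type.

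**Figure D2:**
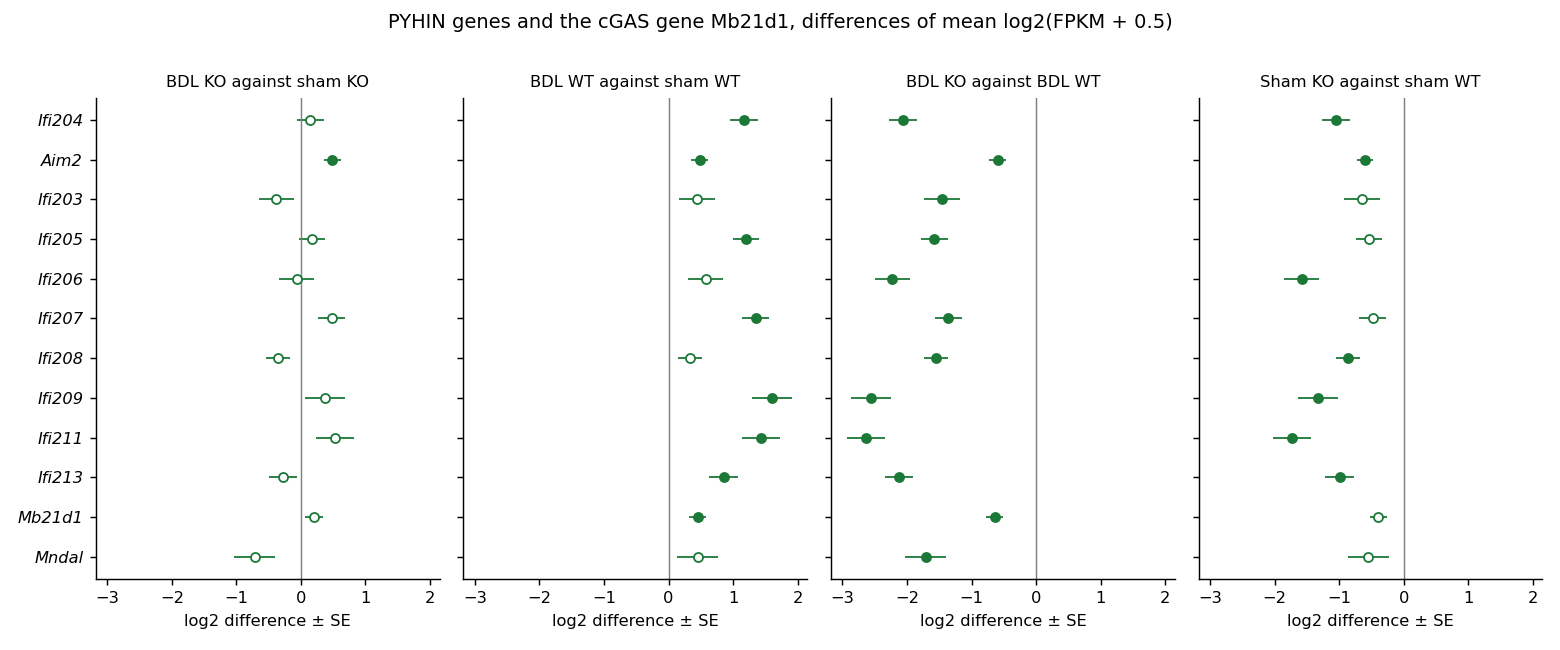
Log2 difference ± SE of Ifi204, Aim2, the other tested PYHIN genes and Mb21d1 in 4 comparisons (columns), from limma with 5 libraries per group; filled points were called. Every gene lay left of 0 for BDL KO against BDL WT, which for Mb21d1 the filter on low values fixed. The filter also favoured this for Ifi205, Ifi206 and Ifi208, which passed it only through WT libraries. Aim2 was the single call for ligation in knockout; without libraries BDL_KO_2359 and BDL_KO_2248, which the picture includes, Ifi204, Mb21d1 and 4 others were called there too.

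Of the kinases downstream of STING, Ikbke was called in 3 of the comparisons and Tbk1 in none. Ikbke (ENSMUSG00000042349, chromosome 1, 131254343 to 131279606, minus strand), the inducible kinase, measured 5.29, 5.44, 2.92, 8.73 and 2.95 FPKM in BDL KO, against 11.6, 9.32, 13.2, 6.66 and 10.6 FPKM in BDL WT. The sham libraries measured 2.48, 1.43, 1.92, 1.73 and 2.75 FPKM in KO, against 3.20, 2.54, 2.15, 2.60 and 4.85 FPKM in WT. Both ligated groups lay wholly above the sham group of their genotype, the BDL KO libraries only narrowly at the low end, and the genotypes overlapped after either surgery. Ligation raised Ikbke 2.06-fold in knockout (1.05 ± 0.25, adjusted p = 0.00606; 1.19 ± 0.29, adjusted p = 0.00371, without BDL_KO_2359 and BDL_KO_2248) and 3.04-fold in wild type (1.61 ± 0.25, adjusted p = 9.3e-05). The genotype difference after ligation was -1.02 ± 0.25 (adjusted p = 0.018), but it was not called without libraries BDL_KO_2359 and BDL_KO_2248 (-0.87 ± 0.29, adjusted p = 0.0797), nor without library BDL_KO_2371 (-0.88, adjusted p = 0.0512), library BDL_Wt_2233 (-0.97, adjusted p = 0.0523) or library BDL_Wt_2236 (-0.93, adjusted p = 0.0606). With only the ligated groups in the fit it was not called either (adjusted p = 0.0893). After sham surgery it was -0.46 ± 0.25 (adjusted p = 0.363).

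Tbk1 (ENSMUSG00000020115, chromosome 10, 121546455 to 121586787, minus strand), the constitutive kinase, averaged 8.41 ± 1.99 FPKM in BDL KO, 11.1 ± 1.60 in BDL WT, 8.34 ± 0.901 in Sham KO and 9.91 ± 1.06 in Sham WT (SD, n = 5 each). No comparison called it. Its ligation difference was -0.01 ± 0.13 in knockout (adjusted p = 0.973; -0.17 ± 0.11, adjusted p = 0.265, without BDL_KO_2359 and BDL_KO_2248) and 0.15 ± 0.13 in wild type (adjusted p = 0.401; 0.47 and called with TPM, adjusted p = 0.0158). After ligation the genotypes differed by -0.39 ± 0.13 (adjusted p = 0.0607). Library BDL_KO_2248 held the highest BDL KO value, 11.9 FPKM, against 6.83 to 8.16 FPKM in the other 4, and without libraries BDL_KO_2359 and BDL_KO_2248 the difference was -0.55 ± 0.11 and was called (adjusted p = 0.00802); leaving out BDL_KO_2248 alone gave -0.51 (adjusted p = 0.00577). It was also called with TPM (-0.69, adjusted p = 0.00659), quantile normalization (-0.41, adjusted p = 0.0369), array weights (-0.48, adjusted p = 0.0116) and recovered fragments scaled to their total (-0.63, adjusted p = 0.00666).

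Irf3 (ENSMUSG00000003184, chromosome 7, 44997648 to 45002848, plus strand), the transcription factor at the end of the route, went the other way. It measured 17.4, 15.2, 13.8, 13.7 and 12.7 FPKM in BDL KO and 14.0, 14.0, 13.9, 13.9 and 14.5 FPKM in BDL WT. The sham libraries measured 24.1, 19.9, 18.0, 22.4 and 19.8 FPKM in KO, against 19.1, 17.8, 18.7, 18.5 and 16.7 FPKM in WT. In each genotype every ligated library lay below every sham library. The ligation difference was -0.50 ± 0.09 in knockout (adjusted p = 0.00044; -0.57 ± 0.09, adjusted p = 0.000102, without BDL_KO_2359 and BDL_KO_2248) and -0.36 ± 0.09 in wild type (adjusted p = 0.00326). The call depended on scaling: with TPM, which put the median of all genes at 0.15 for BDL KO against Sham KO and at 0.27 for BDL WT against Sham WT, the Irf3 differences were -0.33 in knockout (adjusted p = 0.0537) and -0.04 in wild type (adjusted p = 0.801), and with recovered fragments scaled to their total the wild-type difference was -0.17 (adjusted p = 0.254). With TPM the members split into 2 higher and 0 lower in knockout, where 15.2% of all genes were higher and 4.83% lower, and into 8 higher and 0 lower in wild type, where 32.1% of all genes were higher and 7.06% lower. The genotypes were not called apart for Irf3, at 0.04 ± 0.09 after ligation (adjusted p = 0.818; -0.02 ± 0.09, adjusted p = 0.913, without BDL_KO_2359 and BDL_KO_2248) and 0.19 ± 0.09 after sham surgery (adjusted p = 0.265).

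**Figure D3:**
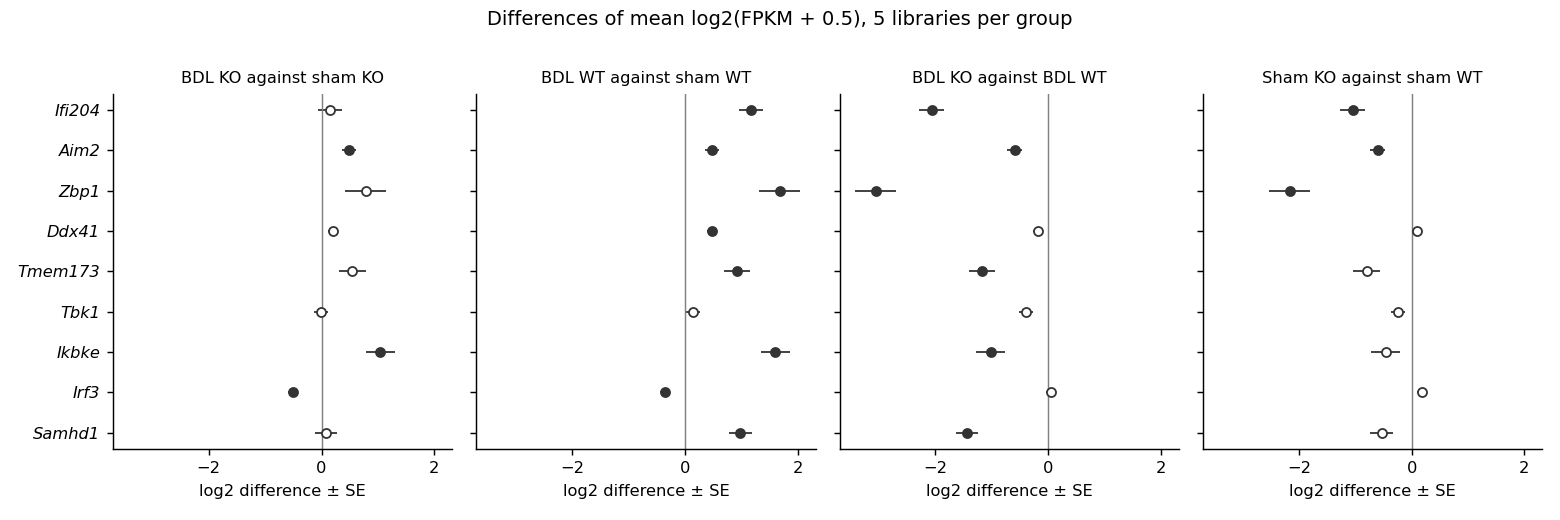
Log2 difference ± SE of the 9 tested members in 4 comparisons (columns), from limma with 5 libraries per group; filled points were called. The points of Zbp1 and Ifi204 lie farthest left in both genotype comparisons, at -3.06 and -2.07 after ligation, and Irf3 is the single member called lower after ligation.

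Of the genes that restrain the route, Samhd1 (ENSMUSG00000027639, chromosome 2, 157097533 to 157135265, minus strand), a hydrolase of deoxynucleotides, measured 2.14, 4.72, 2.23, 5.52 and 4.22 FPKM in BDL KO, against 11.5, 8.96, 10.6, 8.94 and 12.6 FPKM in BDL WT. After sham surgery the values were 3.17, 2.97, 3.05, 4.14 and 3.37 FPKM in KO, against 4.24, 4.04, 6.07, 4.99 and 6.12 FPKM in WT. The ligated genotypes were far apart, the sham genotypes touched through library Sham_Wt_2224 and library Sham_KO_2352, and no library was lower than BDL_KO_2359 and BDL_KO_2248. KO livers were 2.71-fold lower after ligation (-1.44 ± 0.20, adjusted p = 0.00013) and differed by -0.53 ± 0.20 after sham surgery (adjusted p = 0.166). Without BDL_KO_2359 and BDL_KO_2248 the difference after ligation was -1.05 ± 0.15 (adjusted p = 0.000439). In knockout the ligation difference was 0.08 ± 0.20 (adjusted p = 0.81) with all libraries and 0.47 ± 0.15 (adjusted p = 0.0182) without them. Ligation raised Samhd1 1.98-fold in wild type (0.98 ± 0.20, adjusted p = 0.00082).

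Trex1 (ENSMUSG00000049734, chromosome 9, 109057933 to 109059734, minus strand), the main exonuclease of cytosolic DNA, was listed at 0 in all 20 libraries. All 1147 of its exonic bases are also exonic bases of Atrip on the same strand, and Atrip averaged 1.56 ± 0.270 FPKM in BDL KO, 1.49 ± 0.142 in BDL WT, 1.30 ± 0.202 in Sham KO and 1.46 ± 0.269 in Sham WT (SD, n = 5 each). The table therefore gives no level of Trex1 for any group.

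The promoters of Ikbke, Samhd1 and Aim2 are shown because these members rose with ligation in wild type, were lower in BDL KO than in BDL WT, and have a window in the RefSeq promoter table (GRCm38.p6, 250 bases before to 50 after the start, 5′ to 3′ on the gene's own strand). The windows are chr1:131279514-131279813 on the minus strand for Ikbke, chr2:157135047-157135346 on the minus strand for Samhd1 and chr1:173420354-173420653 on the plus strand for Aim2. The Aim2 window lies inside the gene span given above, 173350879 to 173466040, and not at the start of that span. Capitals mark a motif match.
Ikbke: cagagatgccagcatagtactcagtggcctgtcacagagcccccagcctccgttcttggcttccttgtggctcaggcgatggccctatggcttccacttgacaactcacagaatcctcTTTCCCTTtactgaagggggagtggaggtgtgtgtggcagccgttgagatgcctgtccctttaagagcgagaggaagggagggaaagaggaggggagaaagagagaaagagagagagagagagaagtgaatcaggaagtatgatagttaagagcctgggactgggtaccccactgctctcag
Samhd1: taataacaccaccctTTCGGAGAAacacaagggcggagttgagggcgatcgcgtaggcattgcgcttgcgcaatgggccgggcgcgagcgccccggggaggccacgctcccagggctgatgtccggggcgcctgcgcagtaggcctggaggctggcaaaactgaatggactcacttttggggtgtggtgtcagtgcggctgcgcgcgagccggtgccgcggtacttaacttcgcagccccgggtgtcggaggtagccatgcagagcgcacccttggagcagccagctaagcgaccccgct
Aim2: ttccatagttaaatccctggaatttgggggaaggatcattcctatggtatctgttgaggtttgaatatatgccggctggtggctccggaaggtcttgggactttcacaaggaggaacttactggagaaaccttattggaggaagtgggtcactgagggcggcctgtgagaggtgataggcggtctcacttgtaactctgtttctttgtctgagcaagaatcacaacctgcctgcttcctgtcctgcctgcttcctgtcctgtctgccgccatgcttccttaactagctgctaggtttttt
The capitals in Ikbke are a match, 132 bases before the start, to the IRF core AANNGAAA read on either strand, and those in Samhd1 a match, 235 bases before the start, to the GAS element TTCNNNGAA to which STAT factors bind; Aim2 held no match. The motifs were chosen after the values had been seen. Of the 10 members 7 matched the table, with 8 windows, Trex1 having 2; Tmem173, Ifi204 and Zbp1 had no entry. The IRF core stood in 1 of the 8 windows and in 23.9% of all 32851 promoters, and the GAS element in 1 of 8 and 8.30%. The core of the interferon-stimulated response element, GAAANNGAAA, which contains the IRF core, stood in 0 of 8 and 3.44%, and the kappa B site in 1 of 8, a window of Trex1, and 8.46%. A match is only a run of letters, and its absence says only that the letters are not in this window.

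The response of each gene to ligation was next set side by side for the 2 genotypes. Without libraries BDL_KO_2359 and BDL_KO_2248, 7 of the 9 members were called higher and 1 lower in knockout after ligation, where 18.8% of all genes were called higher and 18.2% lower; 5 members were then lower in BDL KO than in BDL WT (Zbp1, Ifi204, Samhd1, Tmem173 and Tbk1), against 3.36% of all genes. No member had a called interaction between ligation and genotype by limma or by voom on recovered fragments, against 0.377% of all genes in limma. The interaction had an unadjusted p under 0.05 for 3 members, as for 1768 of the 14059 genes. It was -1.02 ± 0.31 for Ifi204 (unadjusted p = 0.00348, adjusted p = 0.165), -0.91 ± 0.28 for Samhd1 (0.00454 and 0.177) and -0.28 ± 0.12 for Ddx41 (0.0324 and 0.337). Without libraries BDL_KO_2359 and BDL_KO_2248 these values were smaller. They were -0.57 ± 0.19 for Ifi204 (adjusted p = 0.16), -0.51 ± 0.19 for Samhd1 (adjusted p = 0.223) and -0.18 ± 0.12 for Ddx41 (adjusted p = 0.512). No member was called in that setting either, against 1.27% of all genes. That a member was called in wild type and not in knockout thus does not show that its responses differed.

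**Figure D4:**
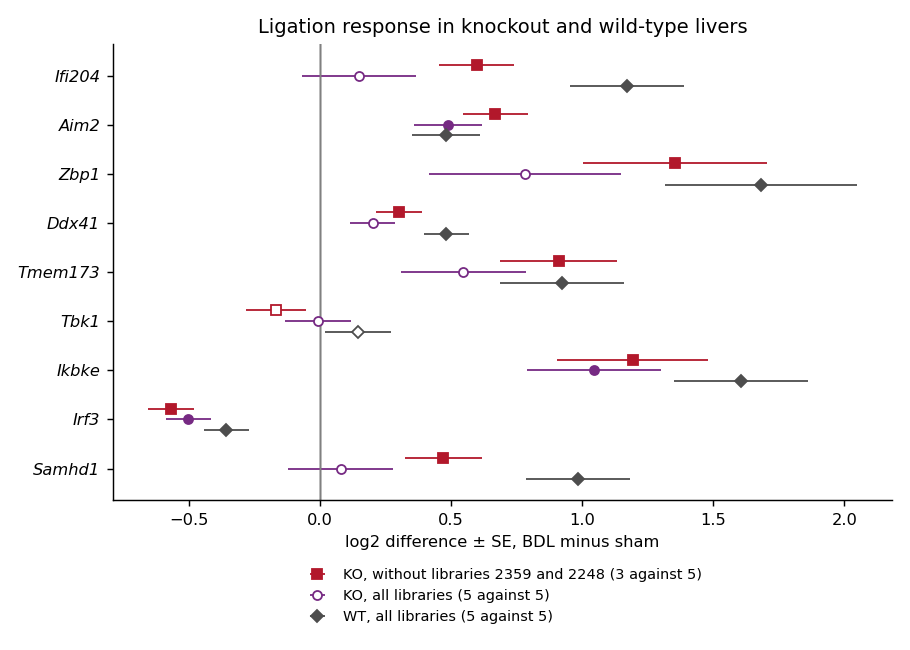
Log2 difference ± SE between ligated and sham livers for the 9 tested members: knockout without libraries BDL_KO_2359 and BDL_KO_2248 (squares), knockout with all libraries (circles) and wild type (diamonds); filled symbols were called. Without the 2 libraries the knockout value moved towards that of wild type for Ifi204, Zbp1, Tmem173, Samhd1, Ikbke and Ddx41. It moved away from that of wild type for Tbk1, Irf3 and Aim2. For Tmem173 the knockout value was then 0.91 against 0.92 in wild type.

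Groups that did not overlap were counted as well. In BDL KO 5 members lay wholly below BDL WT (Tmem173, Ifi204, Zbp1, Samhd1 and Aim2), where 3.33% of all genes did so. In Sham KO 3 members lay wholly below Sham WT (Ifi204, Zbp1 and Aim2), against 4.58% of all genes. In BDL WT 7 members lay wholly above Sham WT, against 16.6% of all genes.

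The order of levels, which FPKM allows as a value per length, differed between genotypes. In BDL KO Irf3 was highest at 14.6 FPKM, apart from Ddx41 at 11.0 FPKM, followed by Tbk1, Ikbke, Zbp1, Samhd1, Ifi204, Tmem173 and Aim2, whose neighbouring ranges all overlapped. In BDL WT Zbp1 led at 40.7 FPKM, apart from all others; Ifi204, Irf3, Ddx41, Tbk1, Samhd1 and Ikbke followed between 15.0 and 10.3 FPKM with overlapping neighbours, and Tmem173 and Aim2 came last, each apart. In Sham KO Zbp1 had rank 6 at 2.24 FPKM, and in Sham WT rank 2 at 12.7 FPKM, behind Irf3 at 20.8 FPKM in Sham KO and 18.2 FPKM in Sham WT. Within BDL KO the spread between libraries was widest for the inducible genes, with coefficients of variation of 54.0% for Zbp1, 53.8% for Tmem173 and 47.0% for Ikbke. It was 12.7% for Irf3 and 10.3% for Ddx41. Zbp1 also spread widely in Sham WT (48.2%). The BDL KO spread includes libraries BDL_KO_2359 and BDL_KO_2248. In the other 3, Zbp1 averaged 6.45 ± 1.12 FPKM, Tmem173 1.87 ± 0.622 FPKM and Ikbke 5.71 ± 2.90 FPKM (SD, n = 3).

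Other genes of the pathway were counted over 8 lists. Of 77 tested genes that are not members, 26 (33.8%) were lower and 0 higher in BDL KO than in BDL WT, against 5.37% of all genes lower, and 11 (14.3%) were lower and 0 higher in Sham KO than in Sham WT, against 1.66%. With ligation in knockout 11 (14.3%) rose and 6 (7.79%) fell, a share of rises near the 12.3% of all genes, and in wild type 31 (40.3%) rose and 7 (9.09%) fell, where 18.1% of all genes rose and 17.5% fell. Their median differences were -0.17 for BDL KO against BDL WT, -0.15 for Sham KO against Sham WT, and 0.10 in knockout and 0.30 in wild type with ligation. Of the 77, 3 (Mb21d1, Tnf and Pycard) passed the filter only through ligated livers. Among the other 74, 25 were lower in BDL KO than in BDL WT, and with ligation 11 rose in knockout and 28 in wild type. The 74 still held Ifi205, Ifi206 and Ifi208, which passed the filter only through WT libraries. Without libraries BDL_KO_2359 and BDL_KO_2248, 23 of the 77 (29.9%) rose and 7 fell with ligation in knockout, against 18.8% and 18.2% of all genes. Of the 74, 20 rose there. In BDL KO 25 of the 77 were then lower and 1 higher than in BDL WT, against 3.36% and 3.24% of all genes. In Sham KO 24 were lower and 1 higher than in Sham WT, against 4.28% and 3.12% of all genes. With ligation in wild type 39 rose and 7 fell, against 21.5% and 20.7% of all genes.

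The output genes of STING had the largest median of the 8 lists between BDL KO and BDL WT, at -3.13, with 6 of 8 tested genes lower. With ligation 0 of the 8 were called in knockout and 6 rose in wild type, with medians of -0.04 in knockout and 1.40 in wild type. Without BDL_KO_2359 and BDL_KO_2248, 2 rose in knockout (Irf7 and Tnf), with a median of 0.38. Tnf, also among the 6 in wild type, passed the filter only through ligated livers, so the filter itself favoured its rise. Mx1, an antiviral GTPase, averaged 0.541 ± 0.308 FPKM in BDL KO and 11.8 ± 4.88 in BDL WT (-3.48 ± 0.29, adjusted p = 1.34e-06). Ifit1, an inhibitor of viral translation, averaged 2.77 ± 1.64 FPKM in BDL KO and 63.1 ± 34.5 in BDL WT (-4.25 ± 0.43, adjusted p = 8.39e-06). With ligation in wild type the calls with the smallest adjusted p were Mx1 (2.15 ± 0.29), Ifit1 (1.95 ± 0.43) and Isg15, a ubiquitin-like modifier (1.77 ± 0.48), and Mx1 was also lower in Sham KO than in Sham WT (-1.31 ± 0.29, adjusted p = 0.0199). Mx1 and Ifit1 were the only pathway genes with a called interaction, at -2.17 ± 0.41 for Mx1 (adjusted p = 0.0322) and -2.83 ± 0.61 for Ifit1 (adjusted p = 0.0496); by voom 0 pathway genes had one. Without BDL_KO_2359 and BDL_KO_2248 it was -1.88 ± 0.42 for Mx1 (adjusted p = 0.0418) and -2.20 ± 0.57 for Ifit1 and not called (adjusted p = 0.0688), while Tank (-0.74 ± 0.14, adjusted p = 0.0248) and Dnase1l3 (0.95 ± 0.22, adjusted p = 0.043) had one. Irf7, the interferon-inducible relative of Irf3, averaged 13.1 ± 7.85 FPKM in BDL KO and 85.7 ± 31.3 in BDL WT, and 8.80 ± 1.82 in Sham KO and 59.9 ± 9.99 in Sham WT (-2.79 ± 0.32 and -2.71 ± 0.32, adjusted p = 2.22e-05 and 0.000271). Irf7 did not pass the test for ligation in either genotype, at 0.37 ± 0.32 in knockout and 0.45 ± 0.32 in wild type, but without those 2 libraries it rose in knockout (0.96 ± 0.26, adjusted p = 0.0082). Ifna4 was listed at 0 in all libraries.

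Among 18 tested STING regulators and genes that handle cGAMP, 3 were lower in BDL KO than in BDL WT: Usp18 (-2.98 ± 0.26, adjusted p = 2.28e-06), which also blocks interferon signalling at its receptor, Trim30a (-2.34 ± 0.31, adjusted p = 9.38e-05) and Trim56 (-0.71 ± 0.14, adjusted p = 0.00288), a ubiquitin ligase of STING. These 3 rose with ligation in wild type, by 1.12 ± 0.26 for Usp18 (adjusted p = 0.00286), 1.32 ± 0.31 for Trim30a (adjusted p = 0.00289) and 0.46 ± 0.14 for Trim56 (adjusted p = 0.0117). With all libraries, Usp18 was the 1 gene of the list lower in Sham KO than in Sham WT (-1.57 ± 0.26, adjusted p = 0.0047). Trim30a was called lower there too without BDL_KO_2359 and BDL_KO_2248 (-1.08 ± 0.23, adjusted p = 0.0103). Usp20, a deubiquitinase of STING, rose with ligation in knockout (0.61 ± 0.10, adjusted p = 0.00035) and in wild type (0.63 ± 0.10, adjusted p = 9.99e-05). Ulk1, an autophagy kinase, and Rnf5, a ubiquitin ligase, fell with ligation in wild type (-0.90 ± 0.18 for Ulk1, adjusted p = 0.000812, and adjusted p = 0.00272 for Rnf5). Insig1, a sterol sensor of the endoplasmic reticulum, rose with ligation in knockout (adjusted p = 0.00275), also without BDL_KO_2359 and BDL_KO_2248 (1.11 ± 0.32, adjusted p = 0.012). Lrrc8a, a subunit of an anion channel, rose in knockout with all libraries (0.36 ± 0.13, adjusted p = 0.0452). Without those 2 libraries its difference was 0.17 ± 0.11 and was not called (adjusted p = 0.232).

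The 9 tested nucleases and DNA-shielding factors split. With ligation 4 rose and 2 fell in each genotype; Dnase1l3, a nuclease secreted by sinusoidal endothelium and macrophages, fell in knockout (-1.15 ± 0.25, adjusted p = 0.00267) and in wild type (-1.60 ± 0.25, adjusted p = 7.66e-05). Rnaseh2c, a subunit of RNase H2, fell as well, with -0.79 ± 0.18 in knockout and -0.89 ± 0.18 in wild type. Pld3, an exonuclease of the lysosome, rose by 0.53 ± 0.14 in knockout and 0.60 ± 0.14 in wild type. Adar, the interferon-inducible RNA-editing enzyme, was with all libraries the 1 gene of this list that was lower in KO. Its difference was -1.34 ± 0.14 after ligation (adjusted p = 1.18e-05) and -0.73 ± 0.14 after sham surgery (adjusted p = 0.00978). Adar rose with ligation in wild type (0.60 ± 0.14, adjusted p = 0.00298). Pld4, of the same list, was called lower in Sham KO without BDL_KO_2359 and BDL_KO_2248 (-0.61 ± 0.13, adjusted p = 0.0102). Without BDL_KO_2359 and BDL_KO_2248, Dnase1l3 was higher in BDL KO than in BDL WT (0.98 ± 0.17, adjusted p = 0.0017), and its fall in knockout was -0.64 ± 0.17 (adjusted p = 0.00571).

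Partners of single members were counted too. Of 9 adaptors of TBK1, Traf3 rose with ligation in wild type (0.81 ± 0.16, adjusted p = 0.000615) and was lower in BDL KO than in BDL WT (-0.53 ± 0.16, adjusted p = 0.0419), a call lost without BDL_KO_2359 and BDL_KO_2248 (-0.34 ± 0.15, adjusted p = 0.191). Mavs, the adaptor of RNA sensing, fell with ligation in knockout (-0.56 ± 0.13) and wild type (-0.50 ± 0.13), Optn, an autophagy receptor, fell in knockout (-0.31 ± 0.10) and Ticam1, the adaptor of TLR3, rose in wild type (0.54 ± 0.15). Of 6 partners of AIM2, 3 were lower in BDL KO than in BDL WT: Gsdmd (-0.66 ± 0.12, adjusted p = 0.00207), the caspase gene Casp4 (-0.97 ± 0.20, adjusted p = 0.00467) and Il1b (-0.95 ± 0.27, adjusted p = 0.0322). Without BDL_KO_2359 and BDL_KO_2248 the Il1b difference was -0.55 ± 0.26 and not called (adjusted p = 0.231). Gsdmd was also lower in Sham KO than in Sham WT (-0.53 ± 0.12) and rose with ligation in knockout (0.40 ± 0.12) and wild type (0.53 ± 0.12). In wild type Casp4 (0.96 ± 0.20) and Pycard (0.53 ± 0.17), the gene of the adaptor ASC, rose as well. Without BDL_KO_2359 and BDL_KO_2248, 4 of the 6 partners rose with ligation in knockout, Gsdmd among them. The others were Pycard (0.45 ± 0.14, adjusted p = 0.0204), Casp1 (0.76 ± 0.18, adjusted p = 0.00306) and Il1b (0.995 ± 0.26, adjusted p = 0.00629). Pycard passed the filter only through ligated livers, so the filter itself favoured its rise in both genotypes. Of 5 partners of ZBP1, the necroptosis effector Mlkl was lower in KO after ligation (-1.28 ± 0.29, adjusted p = 0.0109; -0.80 ± 0.26 and not called, adjusted p = 0.081, without BDL_KO_2359 and BDL_KO_2248) and after sham surgery (-1.18 ± 0.29, adjusted p = 0.0361), and rose with ligation in knockout (1.13 ± 0.29) and wild type (1.24 ± 0.29). The apoptosis initiator Casp8 fell with ligation in knockout (-0.83 ± 0.14, adjusted p = 0.000422). Of 12 other DNA-binding proteins, Lrrfip1 rose with ligation in knockout (0.62 ± 0.11) and wild type (0.99 ± 0.11) and was the 1 gene lower in BDL KO than in BDL WT (-0.36 ± 0.11, adjusted p = 0.0467). The helicase gene Dhx36 fell with ligation in knockout (-0.35 ± 0.08) and wild type (-0.41 ± 0.08), Xrcc5, a subunit of the repair factor Ku, rose in knockout (0.39 ± 0.12), and G3bp1, a stress granule protein, rose in wild type (0.37 ± 0.08).

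Markers of myeloid cells differed between groups as well. The 7 monocyte and macrophage markers summed to 47.4 to 296 FPKM in BDL KO and 231 to 297 FPKM in BDL WT, and to 74.9 to 132 FPKM in Sham KO and 58.5 to 109 FPKM in Sham WT. Of the 7, 3 were lower in BDL KO than in BDL WT and 1 in Sham KO than in Sham WT, and ligation raised 3 in knockout and 6 in wild type. The 5 Kupffer cell markers summed to 114 to 542 FPKM in BDL KO and 379 to 577 FPKM in BDL WT, and to 110 to 178 FPKM in Sham KO and 170 to 292 FPKM in Sham WT; ligation raised 3 in each genotype, 0 were called between the genotypes after ligation and 1 was lower in Sham KO. No marker of either list was at 0 in every library of a group. Dendritic cell markers summed to 1.41 to 5.24 FPKM and those of T and NK cells to 0.698 to 3.19 FPKM over all libraries. Without libraries BDL_KO_2359 and BDL_KO_2248 the monocyte and macrophage sums were 205 to 296 FPKM in BDL KO and 231 to 297 FPKM in BDL WT. The part of these cells in the members' differences was not tested.

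**Figure D5:**
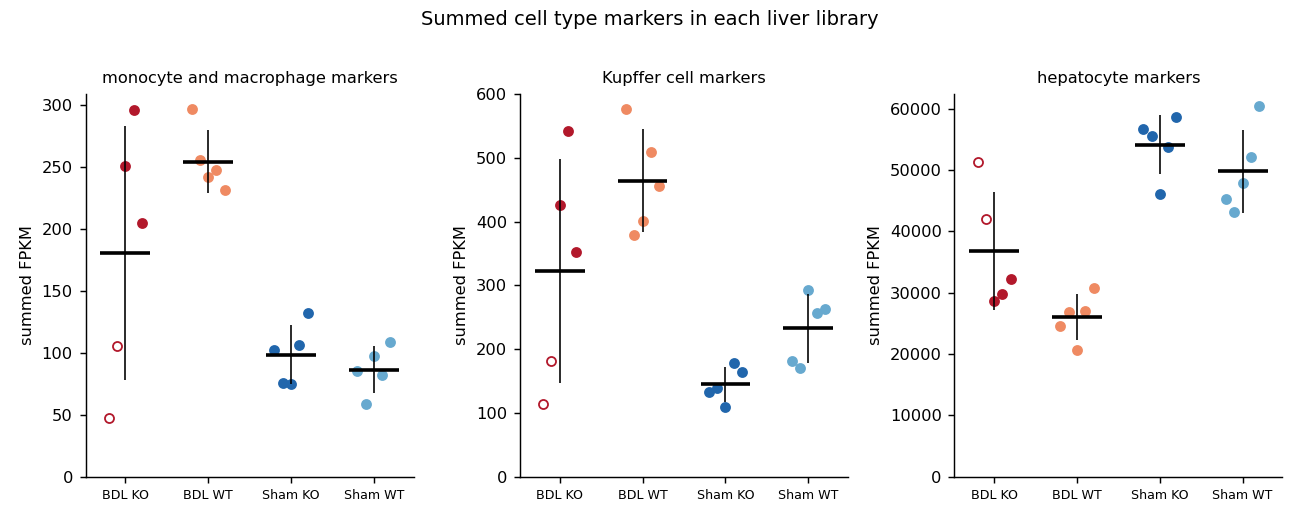
Summed FPKM of the monocyte and macrophage, Kupffer cell and hepatocyte markers in each library (points; open points are libraries BDL_KO_2359 and BDL_KO_2248), with group mean (bar) and SD (line), n = 5 per group. The 2 open points have the lowest myeloid and the highest hepatocyte sums of BDL KO.

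Library type was a further difference within groups. Y-linked transcripts marked 2 libraries of BDL KO, 3 of BDL WT, 3 of Sham KO and 2 of Sham WT, and Xist marked the rest. With the type as a covariate, the 1 call of a member that changed was that of Tbk1, lower in BDL KO than in BDL WT (-0.42, adjusted p = 0.0396). Within the libraries with Y-linked transcripts, 1 member rose with ligation in knockout, against 4.2% of all genes, 6 rose in wild type, against 12.2%, and 4 were lower in BDL KO than in BDL WT, against 1.63%; between sham genotypes 0 members and 0 of all 14059 genes were called. Within those with Xist, Irf3 fell with ligation in knockout, against 2.13% of all genes, and 0 members were called in wild type, where 911 genes were, between the ligated genotypes, where 8 genes were, or between the sham genotypes, where 7 genes were. These fits hold 2 or 3 libraries per group.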

How the data were processed

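RNA of mouse liver was sequenced in 20 libraries, 5 per group. It was extracted with TRIzol, and libraries were prepared with the VAHTS Universal V6 kit, per the labels' protocols. The deposited table holds FPKM values made by the authors. CASAVA 1.8, fastp, HISAT2 2.0.5, featureCounts 1.5.0-p3, DESeq2 1.20.0 and the builds GRCm38 and mm10 are named per the submitters' processing notes, without roles; the annotation release and strand setting are not given in the sources used here. Mice lacking Abcb4 were not analysed here. Groups were taken from sample titles.

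With deposited FPKM multiplied by GENCODE M21 exonic length, 98.3 to 98.8% of low values lay within 0.02 of a whole multiple of the library's step, and gene fragments were recovered from these multiples. FPKM values below 0.5 rest on few fragments, and p-values cover the spread between libraries only.

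Values were analysed as log2(FPKM + 0.5) with limma 3.58.1 in R 4.3.3: genes reaching 0.5 FPKM in 5 or more libraries, 1 mean per group, trend and robust moderation, Benjamini-Hochberg adjustment over 14059 genes, threshold 0.05. Tmem173 was also compared by exact two-sided permutation. Alternatives were pseudocounts of 0.1 and 1, other filters and scalings, other moderation, array weights, only the groups compared, library type (Xist or Y-linked transcripts) as a covariate or alone, voom on recovered fragments, leaving out each library, and leaving out libraries BDL_KO_2359 and BDL_KO_2248. Voom scaled to total fragments was added after seeing the data, as were counts per pathway list without those 2 libraries and without genes that passed the filter through 1 group or through ligated livers only. The pipeline was tested on simulated data. Members, lists, tests and alternatives were chosen with earlier results of these data known. Named genes are all members, the 5 genes most correlated with Tmem173 and list genes at 0 in all libraries. Also named are up to 3 called genes with the smallest adjusted p per pathway list and comparison. Mb21d1 and Atrip were added for their role and position. Tank, Tnf, Casp1, Pld4 and the values of named genes in other comparisons were added after these were seen. Promoters come from RefSeq (GRCm38.p6). Python 3.11.15, pandas 2.3.3, numpy 2.4.6 and matplotlib 3.10.9 were used.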

Additional observations from a re-analysis of the deposited data

Results flagged for a closer look

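In BDL WT, Irf3 in library BDL_Wt_2240 was set apart from the other 4 libraries: it measured 14.5 FPKM, the highest of the group, against 13.9 to 14.0 FPKM in the others, and its gap to the next library took up 0.729 of the group's range (limit 0.71 for 5 libraries). The whole range of that group was narrow, with a coefficient of variation of 1.98%, so the gap is small in FPKM. Of 36 sets of a member in a group that were examined, this was the 1 that passed the limit, where chance alone passes about 1 in 20 sets.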

How the results depend on the processing

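Members and comparisons were recomputed under up to 36 settings, 20 of which leave out 1 library. Of the recomputed differences of single members 1503 kept their direction and side of the threshold, 44 lost a call, 30 gained one and 34 changed sign, none of them called with either sign; where not given beside a value, the cause was not tested. With ligation in knockout, 8 members were called without BDL_KO_2359 and BDL_KO_2248, 6 with array weights, 1 within libraries with Y-linked transcripts, 1 within those with Xist, and 3 to 5 with single libraries left out (5 without BDL_KO_2248). Of all genes the main fit called 25.1% there. The share was 37% without BDL_KO_2359 and BDL_KO_2248, 31.3% with array weights, 7.63% with Y-linked transcripts and 3.91% with Xist. With single libraries left out it was 18.6 to 29.1% (29% without BDL_KO_2248). For Sham KO against Sham WT, 1 member was called with TPM and 1 with voom scaled to total fragments, 5 with array weights, 5 with only these 2 groups fitted, 5 without BDL_KO_2359 and BDL_KO_2248, 0 with Y-linked transcripts and 0 with Xist; over all genes the same comparison called 418, and 210, 149, 1234, 821, 1041, 0 and 7 under these settings in turn. Within libraries with Xist, 0 members were called for BDL KO against BDL WT and 0 for ligation in wild type, where 8 and 911 of all genes were. Fewer libraries entered those fits. Signs turned for Tbk1 with ligation in knockout (0.17 with TPM, 0.00013 with median-ratio scaling, 0.0085 with quantile normalization, 0.031 with Y-linked transcripts, 0.051 with voom scaled to total fragments; -0.13 to 0.056 leaving out libraries) and for Samhd1 there (-0.066 to 0.23 leaving out libraries). Irf3 turned for BDL KO against BDL WT (-0.24 with TPM, -0.0067 with quantile normalization, -0.083 with Xist, -0.024 without BDL_KO_2359 and BDL_KO_2248, -0.18 with voom scaled to total fragments; -0.024 to 0.088 leaving out libraries) and its interaction with Y-linked transcripts (0.065). Ddx41 turned for Sham KO against Sham WT (-0.035 with TPM, -0.0044 with Xist), as did the Aim2 interaction (-0.034 with a pseudocount of 1, -0.072 with TPM, -0.015 with library type as a covariate, -0.070 with Y-linked transcripts; -0.066 to 0.091 leaving out libraries). No paired analysis was possible because no library number is shared between groups. Depth limits Aim2 and Mb21d1 most; Trex1 has no value.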

Other observations

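Trex1 was not alone in being listed at 0 where its exons lie wholly inside another gene. Of 118 protein-coding genes whose exonic bases are all shared with another gene on the same strand, 109 (92.4%) were listed at 0 in all 20 libraries. Of 35 such genes with all bases shared on the other strand and none on the same strand, 34 (97.1%) were listed at 0. Of 15340 protein-coding genes that share no exonic base, 3854 (25.1%) were. Cholangiocyte markers, 5 genes, summed to 82.5 and 62.9 FPKM in BDL KO libraries BDL_KO_2359 and BDL_KO_2248 and to 329 to 557 FPKM in the other 3 BDL KO libraries, against 26.1 to 32.1 FPKM in Sham KO. Sinusoidal endothelial markers, 5 genes, summed to 18.6 to 33.2 FPKM in BDL KO and 12.8 to 21.0 FPKM in BDL WT, against 37.8 to 48.5 FPKM in Sham KO and 31.9 to 39.0 FPKM in Sham WT; 3 of the 5 were higher in BDL KO than in BDL WT.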
